A study of Mus musculus with 72 samples.

Results

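Mrps6, Atp5o, Cryzl1 and Slc5a3 are 4 mouse genes that lie close together in the chromosome 16 segment that is triplicated in the Ts1Cje mouse, a model of Down syndrome. All probe sets that the array annotation assigns to 1 of these genes alone were taken, whatever their values. This gave 11 of the 45101 probe sets on the array, namely 2 for Mrps6, 2 for Atp5o, 4 for Cryzl1 and 3 for Slc5a3, and 4 of the 18194 genes with a probe set of their own. Cerebral cortex, cerebellum and hippocampus were taken from Ts1Cje mice and their disomic littermates at 4 ages written P1, P15, P30 and P84 for the postnatal day, with 3 mice of each genotype at each age and each mouse giving all 3 regions, which made 72 arrays in 24 groups of 3. Both genotypes came from Ts1Cje males mated with C57BL/6 females, the disomic littermates being labelled C57BL/6 (disomic), and no treatment was given. The Ts1Cje chromosome is a translocation, so that the telomeric end of chromosome 12 is present in 1 copy, and the Sod1 gene at the edge of the triplicated segment carries a neomycin insertion that was used for genotyping. Levels are given as the authors' normalised log2 values, on which a difference of 0.58 is 1.5-fold.

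These genes serve separate steps of cell metabolism. Mrps6 encodes a protein of the small subunit of the mitochondrial ribosome, which translates the few proteins encoded by mitochondrial DNA. Atp5o, also named Atp5po, encodes the oligomycin sensitivity-conferring protein, which joins the catalytic head of the mitochondrial ATP synthase to its peripheral stalk. Cryzl1 encodes a protein related to the quinone reductase zeta-crystallin, and Slc5a3 encodes the sodium/myo-inositol cotransporter SMIT1, which carries inositol into cells as an osmolyte and as a precursor of phosphoinositides. The brain depends heavily on oxidative phosphorylation, and in brain cells myo-inositol is one of the main organic osmolytes.

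The promoter windows are shown because Mrps6 and Slc5a3 start almost at the same base. In the RefSeq annotation of GRCm38.p6, the 300 bases from 250 before to 50 after the start lay at chr16:92058072-92058371 on the plus strand for Slc5a3, and at chr16:92058086-92058385 on the same strand for Mrps6. The starts were 14 bases apart and the windows had 286 bases in common. Apart from its first 14 bases the Slc5a3 gene lies within the interval of Mrps6, so the 2 are overlapping genes read from 1 strand. The window of Cryzl1, on the minus strand at chr16:91728753-91729052, is given for comparison, and its start lay 569 bases from that of Itsn1 on the opposite strand. Capitals mark the GC box GGGCGG, searched on both strands.
Slc5a3: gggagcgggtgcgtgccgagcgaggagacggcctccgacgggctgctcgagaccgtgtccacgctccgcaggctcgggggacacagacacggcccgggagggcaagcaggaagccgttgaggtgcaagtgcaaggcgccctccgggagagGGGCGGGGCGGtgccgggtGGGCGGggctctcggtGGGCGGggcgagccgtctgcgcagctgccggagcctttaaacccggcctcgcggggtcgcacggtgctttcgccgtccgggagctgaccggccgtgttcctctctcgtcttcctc
Mrps6: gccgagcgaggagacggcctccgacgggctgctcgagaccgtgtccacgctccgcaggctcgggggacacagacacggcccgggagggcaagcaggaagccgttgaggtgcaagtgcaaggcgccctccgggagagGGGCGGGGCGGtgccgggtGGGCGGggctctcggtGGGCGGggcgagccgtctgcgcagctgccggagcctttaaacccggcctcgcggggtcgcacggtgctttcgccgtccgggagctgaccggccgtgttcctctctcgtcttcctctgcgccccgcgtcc
Cryzl1: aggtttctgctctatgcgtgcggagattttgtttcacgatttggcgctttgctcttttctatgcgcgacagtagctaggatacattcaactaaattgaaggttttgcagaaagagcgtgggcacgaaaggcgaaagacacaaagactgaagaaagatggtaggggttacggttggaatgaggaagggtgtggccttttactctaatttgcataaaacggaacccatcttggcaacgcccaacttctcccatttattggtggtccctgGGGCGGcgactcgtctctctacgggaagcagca
The shared Mrps6 and Slc5a3 start was rich in G and C, with 73.7% and 73.3% of the bases, against 48.3% for Cryzl1 and 52.3% for Atp5o at chr16:91931581-91931880 on the minus strand. Each of the windows of Mrps6 and Slc5a3 held 4 GC boxes, of which 2 share 1 base, that of Cryzl1 held 1 and that of Atp5o held 0. A GC box was present in 35.7% of 32851 promoter windows of the same length.

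Atp5o 1416278_a_at was brighter than 99.1% of the probe sets on the array, and 10 of the 11 probe sets lay above the median of the array on all 72 arrays. The leading probe set of each gene, the one with the highest mean, had a mean of 11.36 for Atp5o (1416278_a_at), 8.79 for Mrps6 (1447585_s_at), 7.93 for Cryzl1 (1430546_at) and 7.17 for Slc5a3 (1435484_at). Different probe sets bind with different strength, so these means do not rank the genes by transcript number. Slc5a3 1422170_at, with a mean of 2.58, lay above the array median on 1 of the 72 arrays and carried no usable level. The study's annotation also aligns Atp5o 1416278_a_at to chromosome 12, so the second probe set, 1437164_x_at, was read beside it. Mrps6 and Slc5a3 overlap on 1 strand, and whether a probe set of either also binds transcripts of the other was not tested.

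Some arrays stood apart. The upper quartile of 3 disomic replicate 3 arrays was low, at 4.97 for P1 cerebellum, 5.23 for P84 cerebral cortex and 5.51 for P84 hippocampus, and these are called the dim arrays. On an axis from 0 for hippocampus to 1 for cerebellum, the P15 disomic replicate 3 array labelled cerebellum stood at -0.03 and the one labelled hippocampus at 1.03, so these arrays went against their region labels and are called the displaced arrays. The labels give all mice as female, but Y-linked Eif2s3y (7.20 to 9.68) was above Xist (1.96 to 2.76) on 69 of 72 arrays, and the reverse held only on the 3 arrays of Ts1Cje P1 replicate 3. Beside these, no array was identical to another, and each array's closest partner correlated at 0.938 to 0.996. Values without these arrays are given beside many of the calls and levels that they moved, but not beside all of them.

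All 4 genes were higher in Ts1Cje brain. The plot of levels by age shows the leading probe sets on every array, with the Ts1Cje arrays of Mrps6, Atp5o and Cryzl1 mostly above the disomic arrays of the same region and age. A probe set was called where the moderated t of limma was at least 4 in size and the Benjamini-Hochberg adjusted p over all 45101 probe sets was at most 0.05. Averaged over the 12 comparisons of a region and an age, 10 of the 11 probe sets were called higher and none lower, against 0.517% of all probe sets called higher. The median difference of the 11 was 0.69, and that of all probe sets was -0.00. In tissue RNA, more cells of a type and more RNA per cell cannot be told apart.

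**Figure D1:**
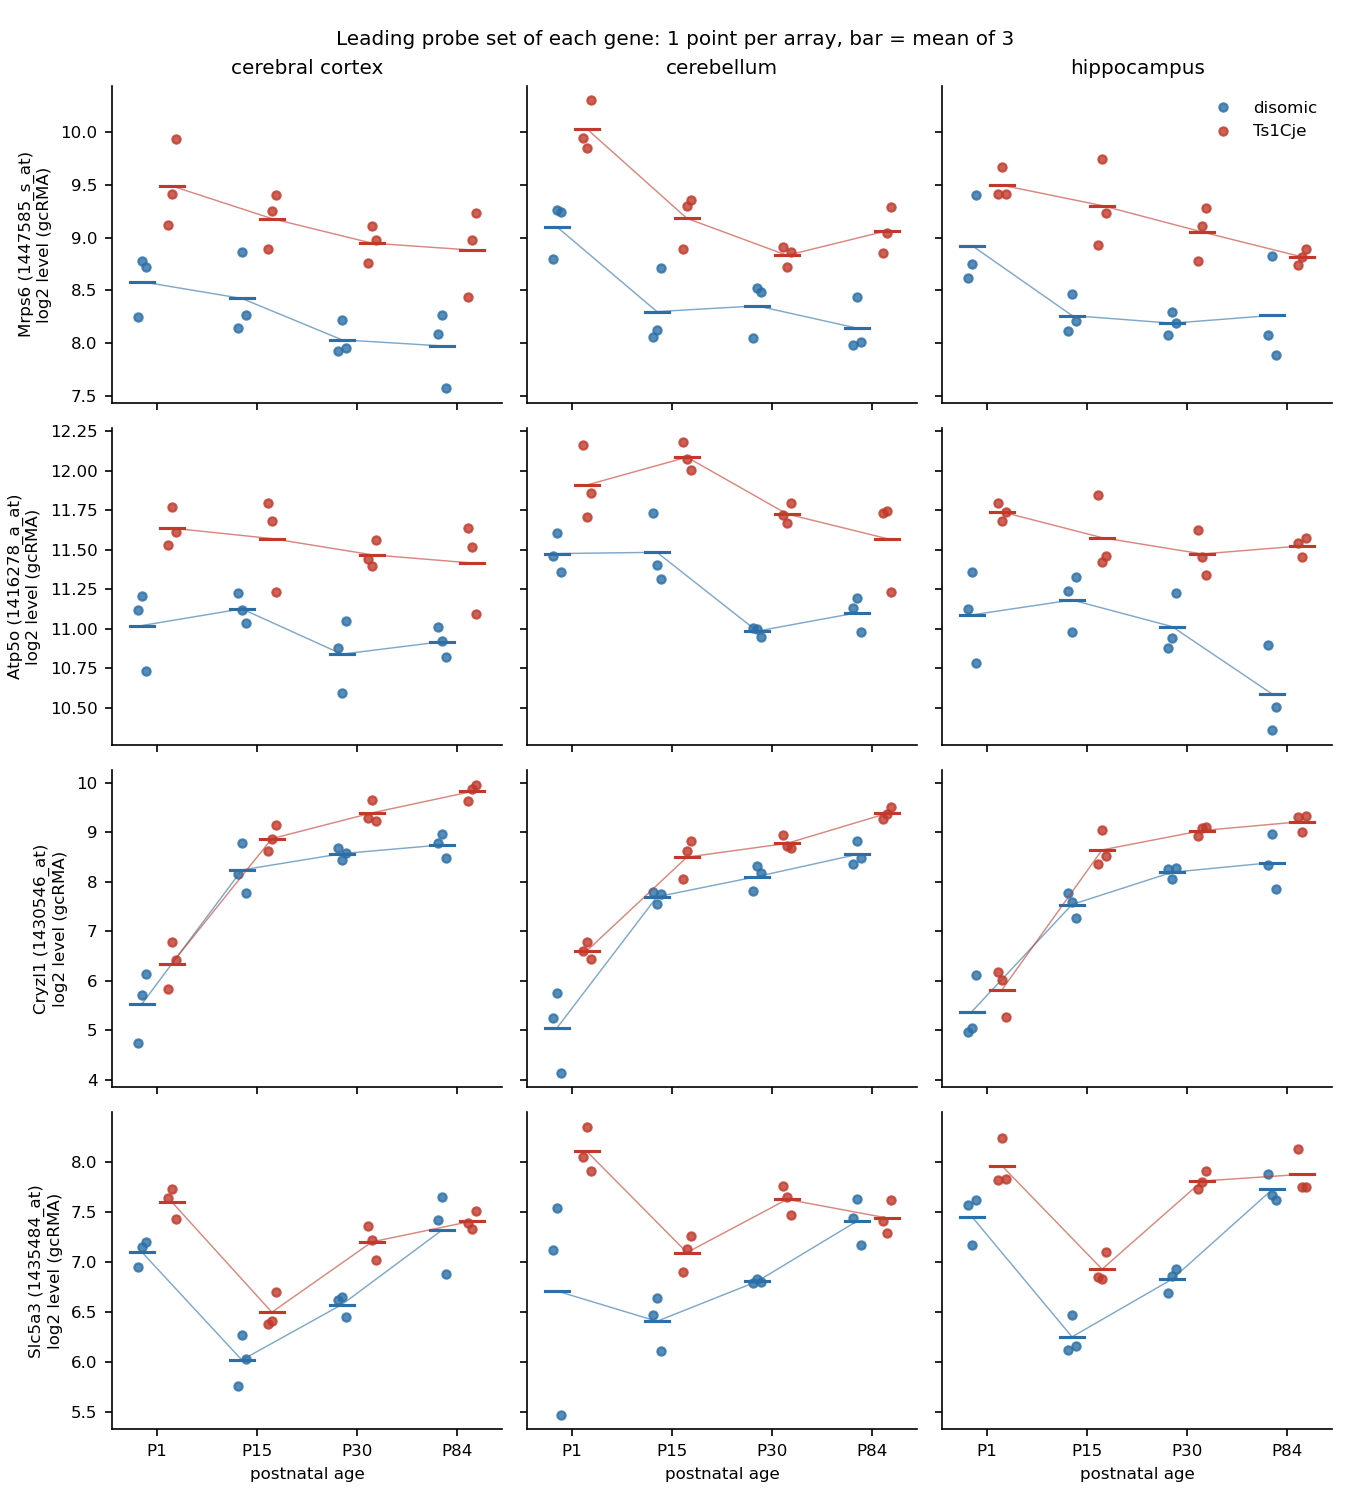
Log2 level of the leading probe set of each gene (rows) in 3 brain regions (columns) against postnatal age, with 1 point per array, a short bar at the mean of 3 arrays and thin lines joining the means. Cryzl1 rose steeply after P1 in both genotypes, and the Slc5a3 arrays of the 2 genotypes overlapped at P84 in all 3 regions.

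Mrps6, the mitochondrial ribosomal protein, was higher in Ts1Cje with little overlap between arrays. Its probe set 1424440_at read 7.81, 7.56 and 7.56 in the 3 disomic P84 cerebellum arrays and 8.65, 8.90 and 8.44 in the Ts1Cje arrays. In P84 hippocampus it read 7.58, 7.45 and 7.56 in disomic mice and 8.35, 8.38 and 8.37 in Ts1Cje mice. All Ts1Cje arrays lay above all disomic arrays in 12 of 12 comparisons for this probe set, and in 11 of 12 for 1447585_s_at. In a single comparison this held for 2.88% to 8.53% of all probe sets, a share that applies to the same counts of the other genes below. The average difference was 0.76 (SE 0.0461, 95% interval 0.66 to 0.85, limma adjusted p 3.7e-18), or 1.69-fold, for 1424440_at. For 1447585_s_at it was 0.81 (interval 0.68 to 0.95), or 1.76-fold. Both intervals lay above 0.58.

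Atp5o, the ATP synthase subunit, differed by close to 1.5-fold. Its probe set 1437164_x_at read 10.68, 10.64 and 10.42 in disomic P84 hippocampus and 11.28, 11.34 and 11.37 in Ts1Cje P84 hippocampus. In P30 cerebellum it read 10.77, 10.99 and 11.02 in disomic mice and 11.52, 11.57 and 11.79 in Ts1Cje mice. The genotypes did not overlap in 11 of 12 comparisons for this probe set and in 12 of 12 for 1416278_a_at. The average difference was 0.59 (interval 0.52 to 0.66), or 1.5-fold, for 1437164_x_at, and 0.57 (0.48 to 0.66), or 1.49-fold, for 1416278_a_at. Both intervals held 0.58.

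Cryzl1, the quinone reductase-like gene, gave differences that depended on the probe set. Its probe set 1451473_a_at read 7.44, 7.31 and 7.02 in disomic P84 cerebral cortex and 8.12, 8.22 and 8.14 in Ts1Cje, and its genotypes did not overlap in 12 of 12 comparisons. The leading 1430546_at read 8.35, 8.82 and 8.48 against 9.26, 9.37 and 9.52 in P84 cerebellum, and was without overlap in 9 of 12 comparisons. The count was 10 of 12 for 1430547_s_at and 7 of 12 for 1440045_at. Average differences were 0.87 (interval 0.69 to 1.05) for 1430546_at, 0.79 (0.64 to 0.94) for 1430547_s_at and 0.69 (0.60 to 0.79) for 1451473_a_at, which are 1.83-, 1.73- and 1.62-fold. The dimmer 1440045_at, with a mean of 5.54, differed by 0.38 (0.30 to 0.47), or 1.30-fold, with the whole interval below 0.58.

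Slc5a3, the inositol transporter, differed between probe sets in its pattern over age. Its probe set 1435484_at read 6.69, 6.86 and 6.93 in disomic P30 hippocampus and 7.72, 7.79 and 7.91 in Ts1Cje. In P84 hippocampus it read 7.88, 7.67 and 7.62 in disomic mice against 8.13, 7.75 and 7.74 in Ts1Cje mice. The genotypes of 1435484_at were separate in all 9 comparisons at P1, P15 and P30 and overlapped in all 3 at P84. The second probe set, 1440227_at, was separate in 8 of 12 comparisons, among them P84 cerebral cortex, with 7.04, 6.22 and 6.19 in disomic mice and 7.58, 7.10 and 7.74 in Ts1Cje. It was also separate in P84 cerebellum and overlapped in P84 hippocampus. The average difference over the 12 comparisons was 0.58 (interval 0.44 to 0.71), or 1.49-fold, for 1435484_at. Probe set 1440227_at differed by 0.74 (0.52 to 0.96), or 1.67-fold, and 1422170_at, near the floor of the array, by 0.08 (adjusted p 0.652).

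**Figure D2:**
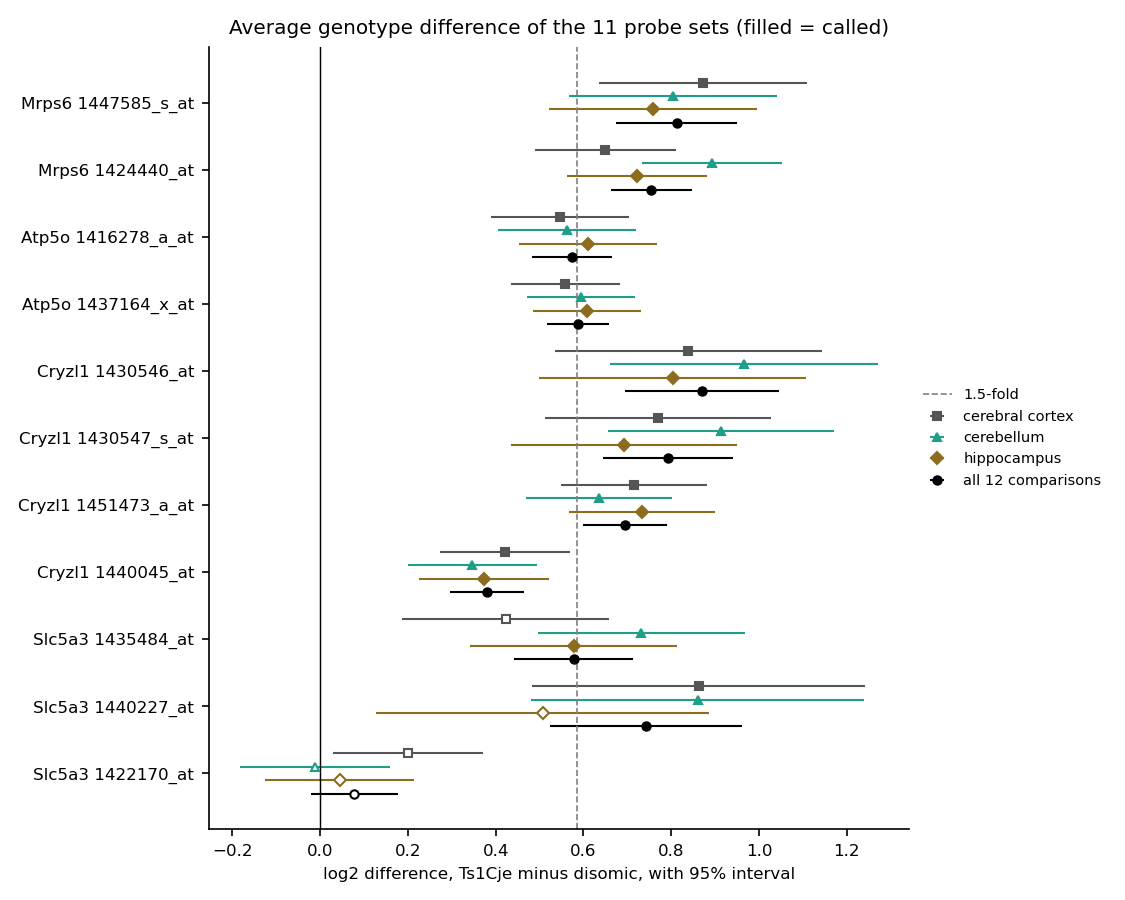
Log2 difference of Ts1Cje minus disomic for each of the 11 probe sets (rows) with 95% intervals, averaged over 4 ages in each region and over all 12 comparisons, filled where called. Of the 11 averages over all 12 comparisons, 10 are filled and lie between 0.38 and 0.87, and the dashed line marks 1.5-fold.

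The differences were present in each region. Averaged over the 4 ages, 9 of 11 probe sets were called higher in cerebral cortex, 10 in cerebellum and 9 in hippocampus, against 0.191%, 0.217% and 0.184% of all probe sets. The median difference of the 11 was 0.65 in cerebral cortex, 0.73 in cerebellum and 0.61 in hippocampus. Mrps6 1424440_at differed by 0.65, 0.89 and 0.72 in cerebral cortex, cerebellum and hippocampus (SE 0.0799), and Atp5o 1437164_x_at by 0.56, 0.59 and 0.61 (SE 0.0615). Cryzl1 1430546_at differed by 0.84, 0.97 and 0.80 (SE 0.152). All probe sets of Mrps6, Atp5o and Cryzl1 were called in all 3 regions.

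Slc5a3 was the gene with region averages that were not called. Its probe set 1435484_at differed by 0.42 in cerebral cortex (adjusted p 0.243), 0.73 in cerebellum and 0.58 in hippocampus, with an SE of 0.118. Without the dim arrays the cerebral cortex value was 0.37 and was called (adjusted p 0.0139). The other usable probe set, 1440227_at, differed by 0.86, 0.86 and 0.51 (SE 0.189), and its hippocampus value was not called (adjusted p 0.751). Without the dim arrays its cerebellum value was 0.72 and was not called (adjusted p 0.0770), and without the 3 arrays with Xist above Eif2s3y its cerebral cortex value was 0.83 and was not called (adjusted p 0.0515). Without the displaced arrays no region average changed its call, and without the dim and displaced arrays together Cryzl1 1440045_at in cerebellum was 0.31 and was not called (adjusted p 0.0717).

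Leaving out 1 replicate number of 1 genotype at all ages tested how far a region average rested on a few arrays. Of the 28 region averages called, 20 were called in all 6 such fits, including all of Mrps6 and Atp5o. The others were averages of Cryzl1 and Slc5a3. Cryzl1 1430546_at in cerebral cortex lost its call in 3 of the 6 fits, with adjusted p from 0.000382 to 0.123, and in hippocampus in 1. Cryzl1 1430547_s_at lost its hippocampus call in 1 fit, and 1440045_at its cerebellum and hippocampus calls in 3 fits each. Slc5a3 1435484_at lost its hippocampus call in 4 fits, with adjusted p from 2.5e-05 to 0.178, and 1440227_at its cerebral cortex call in 4 and its cerebellum call in 5.

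Differences between the regions were tested directly. None of the 33 tests was called, against 0% of all probe sets in each of the 3 pairs of regions (0, 0 and 0). An unadjusted limma p under 0.05 was found for 1 of the 33, or 3.03%, against 3.21% of the tests of all probe sets. That 1 was Mrps6 1424440_at, with a difference larger by 0.24 in cerebellum than in cerebral cortex (interval 0.02 to 0.47, adjusted p 1). The Slc5a3 1435484_at difference was larger by 0.31 in cerebellum than in cerebral cortex (interval -0.02 to 0.64), and by 0.21 without the dim arrays. With 3 mice of each genotype at each age, these intervals were wide, so small region differences may have gone uncalled.

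Single comparisons had less power. Of 132 tests of a probe set in a region at an age, 21 were called higher and 0 lower, namely 6 of 24 for Mrps6, 6 of 24 for Atp5o, 8 of 48 for Cryzl1 and 1 of 36 for Slc5a3. In cerebral cortex, 1, 0, 1 and 2 of the 11 were called at P1, P15, P30 and P84, against 0.00665%, 0.00222%, 0.0111% and 0.0443% of all probe sets. In cerebellum, 5, 3, 2 and 1 were called, against 0.406%, 0.031%, 0.0266% and 0.0976%. In hippocampus, 0, 1, 1 and 4 were called, against 0.0133%, 0.051%, 0.0155% and 0.0665%. Where none was called, in P15 cerebral cortex and in P1 hippocampus, 9 of 11 had an unadjusted limma p under 0.05 in each. Of all 45101 probe sets, 693 and 1122 had such a p in these comparisons. Leaving aside 1422170_at, 119 of 120 differences were above 0, with a median of 0.67. The genotypes were without overlap, with Ts1Cje higher, for 6 to 10 of the 11 probe sets in a comparison, against 2.88% to 8.53% of all probe sets.

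**Figure D3:**
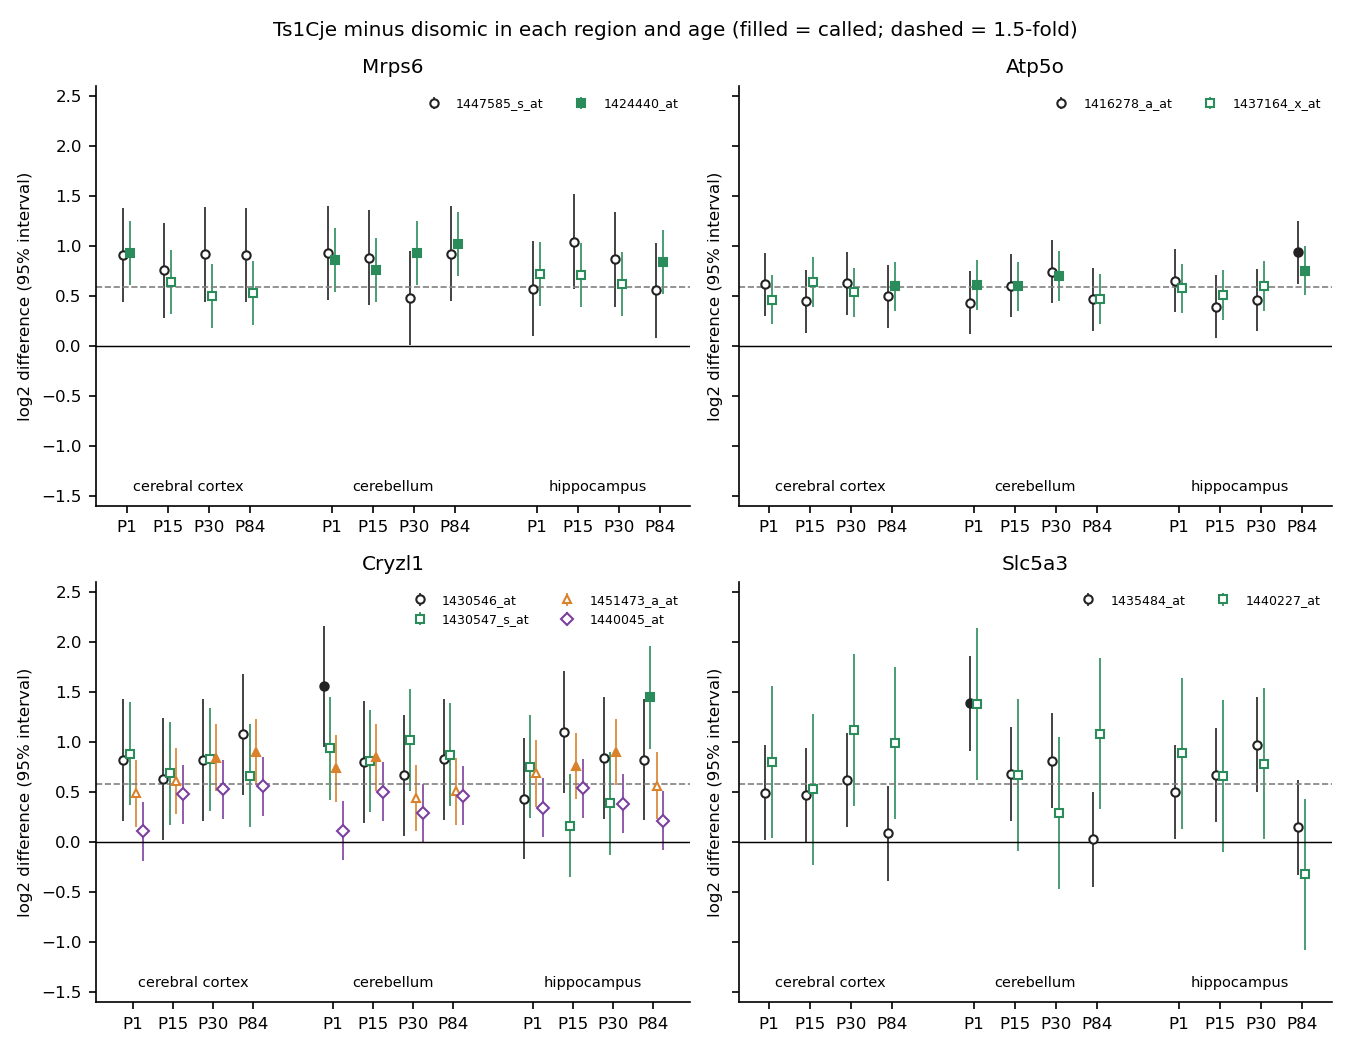
Log2 difference of Ts1Cje minus disomic with 95% intervals for each probe set with a mean level of at least 5, by region and age, filled where called. The Slc5a3 1435484_at values at P84, between 0.03 and 0.15, lie near 0, and Mrps6 and Atp5o stay above 0 throughout.

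For Mrps6, the 6 calls were all of 1424440_at. In P1 cerebral cortex it read 7.98, 8.08 and 8.11 in disomic mice and 8.62, 9.12 and 9.21 in Ts1Cje, a difference of 0.93 (adjusted p 0.00932). In the cerebellum it was called at each age, with 0.86 at P1, 0.76 at P15, 0.93 at P30 and 1.02 at P84 (adjusted p 0.0033, 0.0471, 0.00546 and 0.000199). In P84 hippocampus the difference was 0.84 (adjusted p 0.0076). The differences over all 12 comparisons ran from 0.50 to 1.02 for this probe set and from 0.48 to 1.04 for 1447585_s_at. Without the 3 Ts1Cje arrays with Xist above Eif2s3y, the P1 differences were 0.81 in cerebral cortex and 0.65 in cerebellum and neither was called (adjusted p 0.100 and 0.0877). Without the displaced arrays the P15 cerebellum difference was 0.80 and was not called (adjusted p 0.152).

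For Atp5o, the differences in P84 hippocampus were called with both probe sets, at 0.94 for 1416278_a_at (adjusted p 0.00136) and 0.75 for 1437164_x_at (adjusted p 0.00122). Without the dim array they were 0.90 and 0.67, and both calls held. Probe set 1437164_x_at was also called in P84 cerebral cortex at 0.59 and in cerebellum at P1, P15 and P30 at 0.61, 0.60 and 0.70. Of these, the P84 cerebral cortex call (0.56, adjusted p 0.252) and the P1 cerebellum call (0.52, adjusted p 0.209) were lost without the dim arrays. The P15 cerebellum call was lost without the displaced arrays (0.62, adjusted p 0.112).

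For Cryzl1, 6 of the 8 calls were of 1451473_a_at. This probe set differed by 0.85 in P30 and 0.90 in P84 cerebral cortex, by 0.74 in P1 and 0.85 in P15 cerebellum, and by 0.76 in P15 and 0.91 in P30 hippocampus. In P1 cerebellum, 1430546_at read 5.24, 5.75 and 4.15 in disomic mice and 6.60, 6.78 and 6.44 in Ts1Cje. The lowest of these is the dim array, and without it the difference fell from 1.56 (adjusted p 0.00557) to 1.11 (adjusted p 0.255). In the same comparison 1451473_a_at went from 0.74 to 0.46 (adjusted p 0.462), and in P84 cerebral cortex from 0.90 to 0.78 (adjusted p 0.0564). Without the displaced arrays, 1451473_a_at differed by 0.75 in P15 cerebellum (adjusted p 0.256) and 0.87 in P15 hippocampus (adjusted p 0.0744). In P84 hippocampus 1430547_s_at differed by 1.45 (adjusted p 0.0026) and by 1.43, still called, without the dim array.

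For Slc5a3, P1 cerebellum gave the 1 call. Probe set 1435484_at read 7.11, 7.54 and 5.48 in disomic mice and 8.04, 8.35 and 7.91 in Ts1Cje, so that all Ts1Cje arrays were higher and the dim array was lowest. The difference was 1.39 (adjusted p 0.00103) with the dim array and 0.77 (adjusted p 0.0469, called) without it. At P84 the differences of 1435484_at were 0.09 in cerebral cortex (interval -0.38 to 0.56), 0.03 in cerebellum (-0.44 to 0.50) and 0.15 in hippocampus (-0.32 to 0.62). The intervals of cerebral cortex and cerebellum lay below 0.58, and that of hippocampus reached past it. In P84 cerebral cortex the disomic arrays read 7.42, 7.65 and 6.88 and the Ts1Cje arrays 7.38, 7.33 and 7.51, and without the dim array, the lowest disomic one, the difference was -0.13.

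The other Slc5a3 probe set did not show the same pattern at P84. Probe set 1440227_at differed at P84 by 0.99 in cerebral cortex, 1.09 in cerebellum and -0.32 in hippocampus, each with an SE of 0.377 and none called. Across the ages 1435484_at differed in cerebellum by 1.39, 0.69, 0.82 and 0.03 and in hippocampus by 0.51, 0.68, 0.98 and 0.15. A moderated F test of whether the genotype difference changed with age called 0 of 33, against 0% of all probe sets in cerebral cortex, 0.0399% in cerebellum and 0.00222% in hippocampus. At an unadjusted p under 0.05 by this test there were 3 of the 33, or 9.09%, against 5.16% of the tests of all probe sets. The lowest p was that of Slc5a3 1435484_at in cerebellum (F 5.64, p 0.00203, adjusted p 0.352 by limma), with p 0.00168 and adjusted p 0.481 without the dim arrays. The next with all arrays was that of Cryzl1 1430547_s_at in hippocampus (p 0.00504, adjusted p 0.860 by limma). Without the dim arrays the F test p of 1435484_at went from 0.416 to 0.00975 in cerebral cortex and from 0.105 to 0.00328 in hippocampus. Neither was called after adjustment.

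Call counts of single comparisons rested on few arrays. Without the 3 arrays with Xist above Eif2s3y, 17 of the 21 calls were kept. Of the 21 calls, 2 held in all 6 fits that each left out 1 of the 6 arrays of that comparison, those of Mrps6 1424440_at in P84 cerebellum (adjusted p up to 0.0162) and of Atp5o 1437164_x_at in P84 hippocampus (adjusted p up to 0.0293), and the other 19 were lost in at least 1. Over these fits the Mrps6 difference in P84 cerebellum ran from 0.90 to 1.13, and that of Slc5a3 1435484_at in P1 cerebellum, where the dim array was lowest, from 0.77 to 1.81.

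Cryzl1, Mrps6 and Slc5a3 changed with age in different directions, and Atp5o changed little. Between P1 and P15, averaged over both genotypes, Cryzl1 1430546_at rose by 2.62 in cerebral cortex, 2.27 in cerebellum and 2.49 in hippocampus. In disomic mice its mean level went from 5.53 at P1 to 8.24, 8.57 and 8.74 at P15, P30 and P84 in cerebral cortex, and from 5.04 (5.49 without the dim array) to 7.70, 8.11 and 8.55 in cerebellum. Probe set 1430547_s_at rose less, by 0.83, 1.07 and 0.76, and 1451473_a_at rose by 0.86 in cerebellum and 0.48 in hippocampus. The cerebral cortex value of 1451473_a_at, 0.21, was not called. The hippocampus value of 1451473_a_at was 0.42 without the displaced arrays and 0.46 without the 3 arrays with Xist above Eif2s3y, and that of 1430547_s_at was 0.66 without the latter, none of which was called. The fourth, 1440045_at, fell by 0.54 in cerebral cortex, so that Cryzl1 probe sets went opposite ways there.

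Mrps6 fell over the same step. Probe set 1424440_at fell by 0.47 in cerebral cortex, 0.84 in cerebellum and 0.52 in hippocampus, and 1447585_s_at fell by 0.83 in cerebellum. The values of 1447585_s_at in cerebral cortex (-0.23) and hippocampus (-0.43) were not called. Without the 3 arrays with Xist above Eif2s3y the cerebral cortex value of 1424440_at was -0.41 and was not called. Its mean in disomic cerebellum went from 9.10 at P1 to 8.30, 8.35 and 8.14 at the later ages with 1447585_s_at, where the P15 value was 8.09 without the displaced array.

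Slc5a3 fell and then returned, and with all arrays kept only 1435484_at was called. Probe set 1435484_at fell by 1.09 in cerebral cortex and by 1.11 in hippocampus from P1 to P15, and rose by 0.73 in hippocampus from P15 to P30. The cerebellum value of -0.66 from P1 to P15 was not called because its t of -3.94 was under the threshold, and without the dim array it was -0.96 and was called. In disomic mice the mean went from 7.45 at P1 to 6.25, 6.83 and 7.72 in hippocampus, and from 7.10 to 6.02, 6.57 and 7.32 (7.53 without the dim array) in cerebral cortex. Without the displaced arrays the rise in hippocampus was 0.70 and was not called. Without the dim arrays further rises were called, from P15 to P30 in cerebral cortex (0.63) and cerebellum (0.46) and from P30 to P84 in cerebral cortex (0.58) and hippocampus (0.51). The other usable probe set, 1440227_at, changed by -0.55, -0.28 and -0.64 from P1 to P15 in cerebral cortex, cerebellum and hippocampus. From P15 to P30 it changed by 0.51, 0.55 and 0.95, and with all arrays kept none of these steps was called.

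Atp5o stayed near its level at all ages, with disomic means of 1416278_a_at between 10.59 and 11.49. Its probe set 1437164_x_at fell by 0.36 in cerebellum from P15 to P30, and the value was -0.35, not called, without the displaced arrays, when that of 1416278_a_at was -0.47 and was called. Between successive ages, 5 of 11 probe sets were called between P1 and P15 in each region, against 23.8% of all probe sets in cerebral cortex, 21.9% in cerebellum and 19.1% in hippocampus. From P15 to P30, 0, 1 and 1 were called, against 1.67%, 4.53% and 1.75%, and from P30 to P84 none was called, against 0.286%, 0.712% and 0.313%. Of the 17 calls, 9 were rises and 8 falls.

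**Figure D4:**
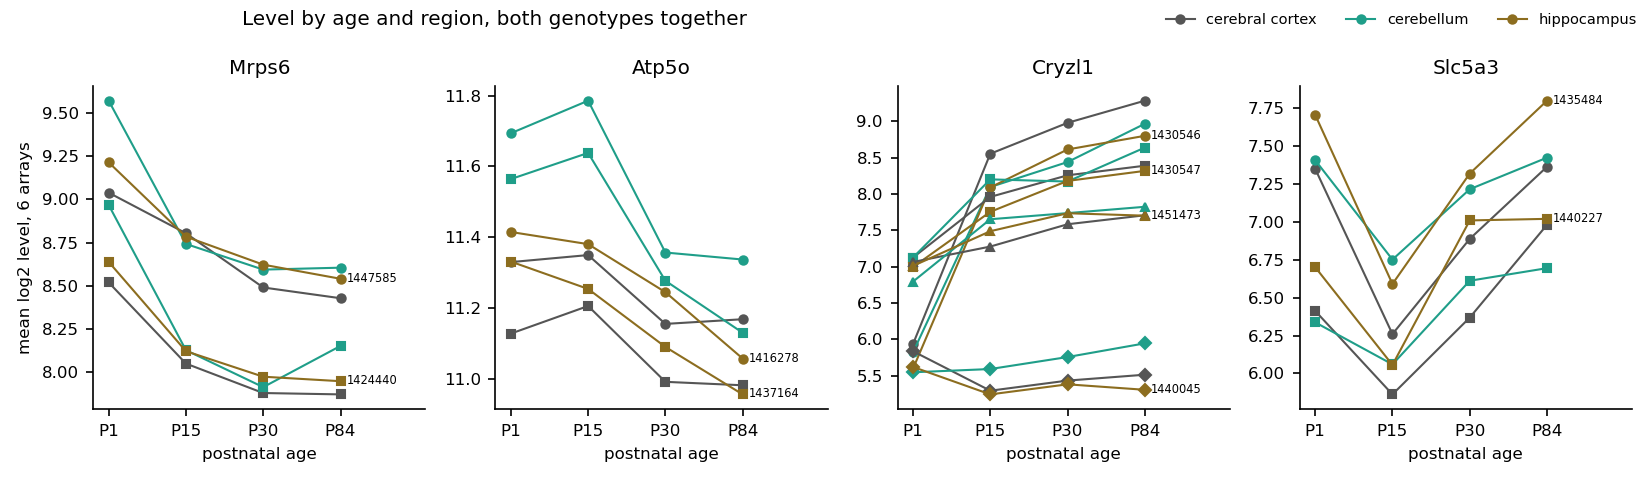
Mean log2 level of both genotypes together (6 arrays per point) against postnatal age, for each probe set with a mean of at least 5, coloured by region. Cryzl1 1430546_at rises from P1 to P15 in all 3 regions, Mrps6 falls, and Slc5a3 1435484_at dips at P15.

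Whether the P1 to P15 step differed between regions was examined after the values had been seen. None of the 33 tests was called, against 11.5%, 1.54% and 5.72% of all probe sets for cerebellum against cerebral cortex, hippocampus against cerebral cortex and hippocampus against cerebellum. At an unadjusted p under 0.05 by limma there were 7, or 21.2%, against 23.8% of the tests of all probe sets. The nearest to a call were those of Cryzl1 1440045_at (0.59, t just under 4, adjusted p 0.00178) and 1451473_a_at (0.64, t 3.89, adjusted p 0.00235), both larger in cerebellum than in cerebral cortex. Without the displaced arrays both were called, at 0.64 and 0.70.

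Between regions, levels of these probe sets were called about as often as those of all probe sets, or less often. Atp5o was higher in cerebellum than in cerebral cortex by 0.29 with 1416278_a_at and 0.33 with 1437164_x_at, and lower in hippocampus than in cerebellum by 0.27 and 0.24 (-0.27 and -0.24 as differences). Slc5a3 1435484_at was higher in hippocampus than in cerebral cortex by 0.39. Cryzl1 1440045_at was lower in hippocampus than in cerebellum, with a difference of -0.32. These 6 calls of 33 stood beside 29% of all probe sets between cerebellum and cerebral cortex, 9.39% between hippocampus and cerebral cortex and 26.8% between hippocampus and cerebellum. No Mrps6 probe set was called between regions, and without the dim arrays Slc5a3 1435484_at was called higher in cerebellum than in cerebral cortex too (0.28).

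The leading probe sets followed separate courses over the 12 disomic group means. Mrps6 and Cryzl1 ran in opposite directions (Pearson r -0.920), Mrps6 and Slc5a3, which share a start region, had r 0.0123, and Atp5o and Slc5a3 had r -0.531. Probe sets of 1 gene mostly ran together, with r 0.901 for Mrps6, 0.947 for Atp5o and 0.764 for Slc5a3, but Cryzl1 1440045_at and 1430546_at had r -0.433. Without the dim and displaced arrays the correlations moved, to -0.835 for Mrps6 and Cryzl1, 0.349 for Mrps6 and Slc5a3, and -0.260 for Atp5o and Slc5a3. These are descriptions over 12 means that share ages and mice, and no p is attached.

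Other genes with the most similar pattern were named by r over the same 12 means, among 7756 genes with a mean of at least 5. For Mrps6 they were Eif3i (0.980), Slc25a20 (0.972), Ppib (0.968), Kdelr2 (0.957) and Cmc1 (0.952). Those of Atp5o were Selenof (0.950), Atp5e (0.936), Ndufa7 (0.933), Serpinh1 (0.920) and Ppp1ca (0.904), of which Atp5e encodes another subunit of the ATP synthase and Ndufa7 one of complex I. For Cryzl1 they were Rab3gap2 (0.993), Arfgef2 (0.992), Abhd8 (0.989), Hdac11 (0.989) and Tomm40l (0.988). Slc5a3 had no gene as near, with Gtf2h4 (0.852), Clpp (0.817), Nudc (0.795), Pitpnb (0.772) and Cplane1 (0.770). These names depend on single arrays, since without the dim and displaced arrays 2 of the 5 remained nearest for Mrps6, 2 for Atp5o, 3 for Cryzl1 and 3 for Slc5a3.

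The 4 genes lay within the range of the other triplicated genes. Of 77 measured, 38 had a leading probe set with a mean of at least 5, and 37 of these were called higher in the average of the 12 comparisons. Those other than the 4 had a median difference of 0.71, from 0.35 to 1.10. By size of the difference, Cryzl1 ranked 6, Mrps6 11, Slc5a3 31 and Atp5o 32 of 38. Of the genes next to them, Itsn1 and Donson differed by 0.63 and 1.01, and the neighbours beyond Mrps6 and Slc5a3 are not given.

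**Figure D5:**
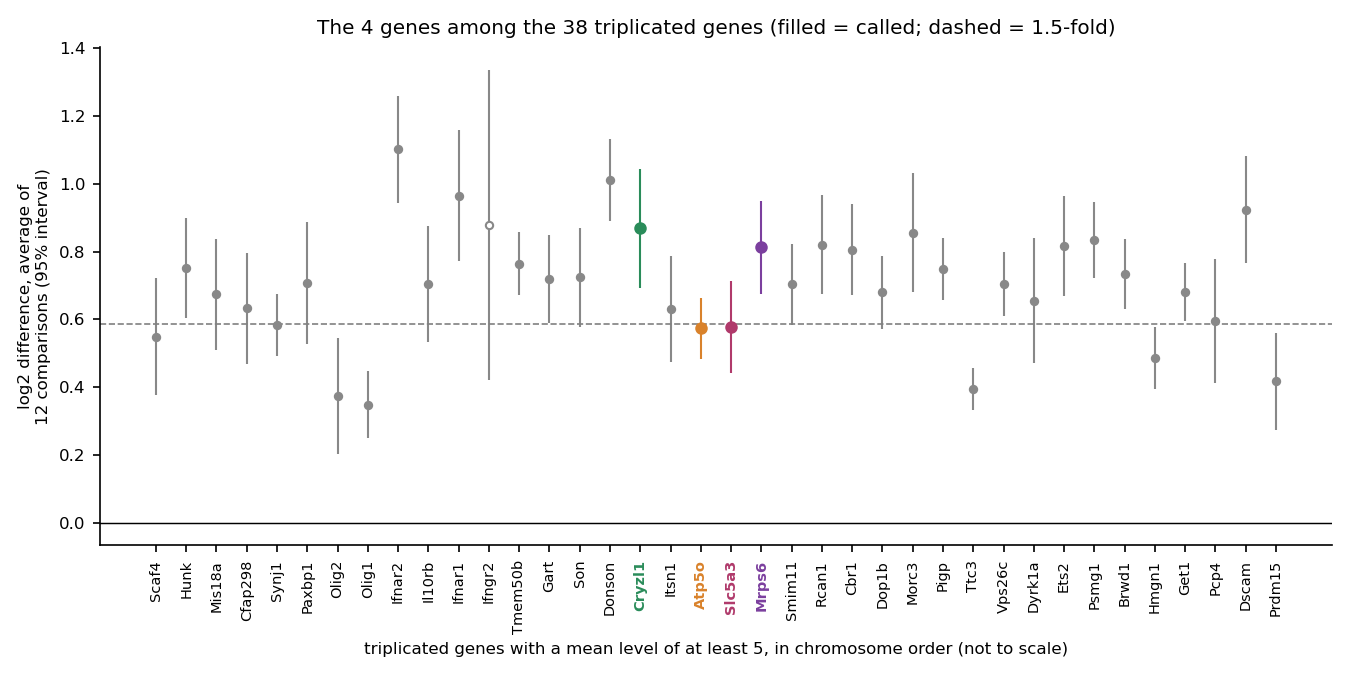
Average log2 difference of Ts1Cje minus disomic over 12 comparisons, with 95% intervals, for the 38 triplicated genes with a mean level of at least 5, in order along chromosome 16, filled where called. The 4 genes, coloured, lie between 0.57 and 0.87, and the dashed line marks 1.5-fold.

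Genes of the same pathways outside the segment were read beside them. None of 29 other genes of the small subunit of the mitochondrial ribosome was called in the average of 12 comparisons, a region average or a single comparison, with a median average difference of 0.07, against 0.01 for all genes. The large subunit (47 genes, 0.08), the ATP synthase (20 genes, 0.05), the quinone and zinc-type oxidoreductases (10 genes, 0.09), the genes of inositol transport and metabolism (10 genes, 0.04) and the osmotic response genes (6 genes, -0.00) had none called either. At an unadjusted p under 0.05 by limma, the average of 12 comparisons gave 5, 8, 3, 1, 0 and 1 genes of these lists in that order. These are 17.2%, 17.0%, 15%, 10%, 0% and 16.7% of the lists, beside 4201 of all 45101 probe sets. The lists count 1 probe set per gene, the one with the highest mean, while the 4201 are counted over every probe set, dim ones included. Whether the lists exceed the share of all genes was not tested.

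Between P1 and P15 genes of all these lists were called, beside 14.98%, 12.9% and 12.2% of all 18194 genes called higher in cerebral cortex, cerebellum and hippocampus and 15.5%, 14.7% and 13.5% lower. Of the 20 ATP synthase genes, 12, 6 and 11 were called higher and 0, 1 and 0 lower. Of the 10 inositol genes, 6, 6 and 5 were called higher and 0 lower in each region. The mitochondrial ribosome went both ways, with 5, 2 and 6 of 29 small subunit genes higher and 6, 9 and 4 lower, and 5, 1 and 4 of 47 large subunit genes higher and 6, 15 and 6 lower. Of the 10 oxidoreductases, 3, 2 and 3 were called higher and 0, 3 and 1 lower, and of the 6 osmotic response genes 1, 2 and 3 higher and 2, 1 and 2 lower.

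No marker gene was called in a genotype comparison, but the array means of a marker list did not overlap between genotypes in 16 of 132 pairs of a list and a comparison, over 11 lists. With 3 arrays against 3 and no genotype difference, a pair lacks overlap in either direction with a probability of 0.1. The 132 pairs are not independent, and whether 16 exceeds this share was not tested. At P84 the mean of 7 oligodendrocyte markers was higher in every Ts1Cje array than in every disomic array in all regions, with 10.54 to 10.59 against 10.16 to 10.32 in cerebral cortex, 10.50 to 10.65 against 10.35 to 10.45 in cerebellum and 10.68 to 10.86 against 10.54 to 10.63 in hippocampus. In P84 cerebellum, the mean of 8 astrocyte markers was lower in Ts1Cje (10.63 to 10.80 against 10.96 to 11.07), and in P84 hippocampus that of 8 hippocampus markers was lower (7.54 to 7.72 against 7.77 to 8.08). Ts1Cje was higher for the hippocampus markers in P84 cerebral cortex (4.25 to 4.33 against 3.96 to 4.22) and the 6 meninges markers in P84 hippocampus (5.56 to 6.17 against 5.38 to 5.56). Before P84, Ts1Cje was higher for meninges markers in P30 cerebellum (6.41 to 6.66 against 6.07 to 6.14), cerebellum markers in P30 hippocampus (3.65 to 4.97 against 3.31 to 3.53) and 6 cerebral cortex markers in P1 cerebellum (4.90 to 5.25 against 4.60 to 4.90). Cerebral cortex, endothelial and blood markers were higher in P15 hippocampus, where a disomic array is displaced, hippocampus markers were lower in P30 cerebellum (4.04 to 4.19 against 4.19 to 4.59), and blood markers were lower in P1 cerebral cortex and hippocampus. The 3 blood markers lay near the floor, with array means of 2.2 to 3.4. The part of these separations in the values of the 4 genes was not tested.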

How the data were processed

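Total RNA of 3 brain regions was hybridised to Affymetrix Mouse Genome 430 2.0 arrays after 2 cycles of target labelling. The deposited values are log2 levels made by the authors with gcRMA (the submitters' processing notes name GCRMA; for its version: not given in the sources used here), and they were used without further scaling. Groups came from the labels. The labels give the youngest age as P1. One mouse gave 3 regions, so arrays of different regions are not independent animals.

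Of 45101 probe sets, 34958 had 1 gene symbol, 932 several and 9211 none in the platform annotation, and 34754 were matched to a current RefSeq symbol. In R 4.3.3, limma 3.58.1 fitted 24 group means to all 72 arrays (48 residual degrees of freedom). Genotype differences within each region and age, averages of these, differences between regions, between ages and between levels were taken as contrasts. A call needed a moderated t of at least 4 in size, as in the methods of the study, and a p of at most 0.05 after Benjamini-Hochberg adjustment across the whole array. The test was tried on simulated data. The number of arrays limits the precision.

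Genes were named by rule: every probe set of the 4 genes, the genes most like each leading probe set, and called genes of fixed lists. The 4 genes and the lists were chosen with earlier results of these data known. Alternatives tried were another normalization, a filter on low values, other variance priors and fits, array weights, blocks, and leaving out arrays or replicates. The test of the P1 to P15 step between regions and the fit without the 3 arrays with Xist above Eif2s3y were added after the values were seen. Promoter sequences are RefSeq's on GRCm38.p6.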

Additional observations from a re-analysis of the deposited data

How the results depend on the processing

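The 10 calls in the average of 12 comparisons held in every alternative that could give it, which leaves out 1 fit per region and 1 fit per comparison, and the region averages gave 22 to 29 calls against 28. The 21 calls in single comparisons went to 7 with 1 fit per region, 0 with 1 fit per comparison and 42 with array quality weights, and lay between 7 and 17 when 1 replicate was left out. With the replicate number as a block the single comparisons gave 29 calls within each age and 31 over all ages, of which 19 and 21 were calls without the block, and the block within each age ended the calls of Cryzl1 1451473_a_at in P30 cerebral cortex (adjusted p 0.0574) and P15 hippocampus (adjusted p 0.0647). The main fit did not use the replicate number as a pairing. Deviations of same-numbered arrays correlated at -0.259 to 0.699, with 23 of 36 pairs above 0.1. Of these pairs 32 were above 0 (25 of 72 for different numbers), and 46 of 72 arrays correlated best with their own number. Same-numbered arrays thus shared some variation that the main fit left out. The 17 calls between successive ages were 9 with the block within each age and 10 to 18 without 1 replicate. The 6 calls between regions were 10 with array weights and 5 to 8 without 1 replicate. The 0 calls for the change of the genotype effect with age were 1 with array weights. The 0 calls for regional differences of the P1 to P15 step were 1 with the block within each age and 2 with the mouse as a random block, with array weights, without the displaced arrays or without these 5 arrays, and 0 to 2 without 1 replicate. Single values that changed sign were few. Slc5a3 1435484_at in P84 cerebral cortex was -0.0412 with quantile normalization, -0.11 with array weights and -0.13 without the dim arrays or the 5 arrays, and ran from -0.13 to 0.26 when 1 replicate was left out. In P84 cerebellum it ran from -0.0913 to 0.14. Cryzl1 1440045_at ran from -0.0391 to 0.27 in P1 cerebral cortex and from -0.000754 to 0.21 in P1 cerebellum, where it was -0.17 with quantile normalization. Cryzl1 1430547_s_at in P15 hippocampus ran from -0.15 to 0.36. The cause of these changes was not tested. In the 12 comparisons, 2178 single values kept their direction and side of the threshold across the alternatives, 125 fell short of it, 85 passed it and 12 reversed.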
